A study of Oryctolagus cuniculus with 9 samples.

Results

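The genes described here are the core circadian clock genes, a list of 10 symbols: PER1, PER2, PER3, CRY1, CRY2, ARNTL, CLOCK, NR1D1, NR1D2 and DBP. A gene was taken as the table row whose name equals the symbol, which gave 9 genes out of 19511 loci, with 1 row each. DBP was not analysed here. RNA was sequenced from primary rabbit parathyroid cells in 9 libraries, 3 in each of 3 groups. Control cells are labelled WT, untreated and Day0. H/R cells, labelled IRI with no treatment, were kept under hypoxia for 6 h and then reoxygenated for 6 h to imitate ischaemia and reperfusion. GA+H/R cells had the same hypoxia and reoxygenation after 24 h with 1200 µM gallic acid, a plant phenolic acid. H/R against control is called the injury step here, GA+H/R against H/R the gallic acid step, and GA+H/R against control the joint comparison. Nothing in the labels says that the libraries are of separate animals or cultures, so the p-values reflect a spread between libraries that may be technical. The labels give no time of day and no synchronisation of the cells, and each group was taken at a single time, so a shift of clock phase and a change of level cannot be told apart, and time in culture cannot be told apart from treatment.

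The mammalian clock is a feedback loop of transcription. CLOCK and ARNTL (also called BMAL1) pair and activate genes that carry E-box motifs, among them the PER and CRY genes, and PER and CRY proteins return to the nucleus and repress CLOCK and ARNTL. The same pair activates NR1D1 and NR1D2, which encode the nuclear receptors REV-ERB alpha and beta, and these repress ARNTL, while ROR receptors compete with them and activate it. Most tissues and cultured cells run this loop, and glucocorticoid and cAMP signals reset it by inducing PER genes.

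Values are FPKM (fragments per kilobase of transcript, scaled to the size of the library), as the authors deposited them. Read depth is unknown, and levels of different genes are not compared. Library totals lay between 1648012 and 1696488 FPKM for control, 730117 and 752065 for H/R and 467499 and 516231 for GA+H/R, and the median locus shifted by -1.25 (log2) in the injury step, -0.50 in the gallic acid step and -1.77 in the joint comparison. Each library was therefore divided by its median ratio to an average library, and log2 changes on this scale, relative to the median locus, are those meant by rose and fell, with an adjusted p under 0.05 (limma on log2 of the scaled value plus 1, Benjamini and Hochberg over 10956 loci). Parathyroid identity was barely measured. PTH was at most 0.142 FPKM in any library, CHGA at most 0.379, and CASR and GCM2 were not analysed here. The 10 fibroblast markers in the table summed to between 128400 and 192300 FPKM in control, and the 12 macrophage markers to between 10.02 and 79.7. Control 1 stood apart from the other controls (r = 0.985 and 0.983 with controls 2 and 3, which correlated at 0.997 with each other).

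On this scale the clock genes differed in direction and size. Of the 9 genes, 7 were tested, each above 1 FPKM in every library, and PER2 and PER3 lay under the filter of 1 FPKM in at least 3 libraries. In H/R against control, CLOCK, ARNTL and NR1D2 fell and NR1D1 rose, while PER1, CRY1 and CRY2 did not pass the test. That is 3 of 7 called lower against 28.4% of all loci tested, and 1 of 7 called higher against 29.2%. In GA+H/R against H/R, PER1 and ARNTL fell, 2 of 7 against 15.2% of all loci, and 0 of 7 rose by limma, also at an unadjusted p under 0.05, against 18.7%. NR1D1 was called higher there with only the 2 groups compared in the limma fit (adjusted p = 0.00131). In GA+H/R against control, CLOCK, ARNTL, PER1 and NR1D2 fell, 4 of 7 against 35.5%, and NR1D1 rose, 1 of 7 against 33.7%. The median log2 change of the 7 genes was -0.09, -0.14 and -0.57 in the 3 comparisons, where that of all loci was 0.0028, 0.0040 and -0.05. All 3 libraries of a group lay below all 3 of the other, relative to the median locus, for 3, 4 and 4 of the 7 genes (33.0%, 24.5% and 36.5% of all loci) and above for 1, 1 and 1 (34.1%, 27.4% and 35.0%). On the deposited scale 6, 6 and 7 of the 7 genes were called lower, as were 86.0%, 64.3% and 90.1% of all loci. The comparisons share libraries, H/R and control each standing in more than 1, so their values are given side by side.

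**Figure D1:**
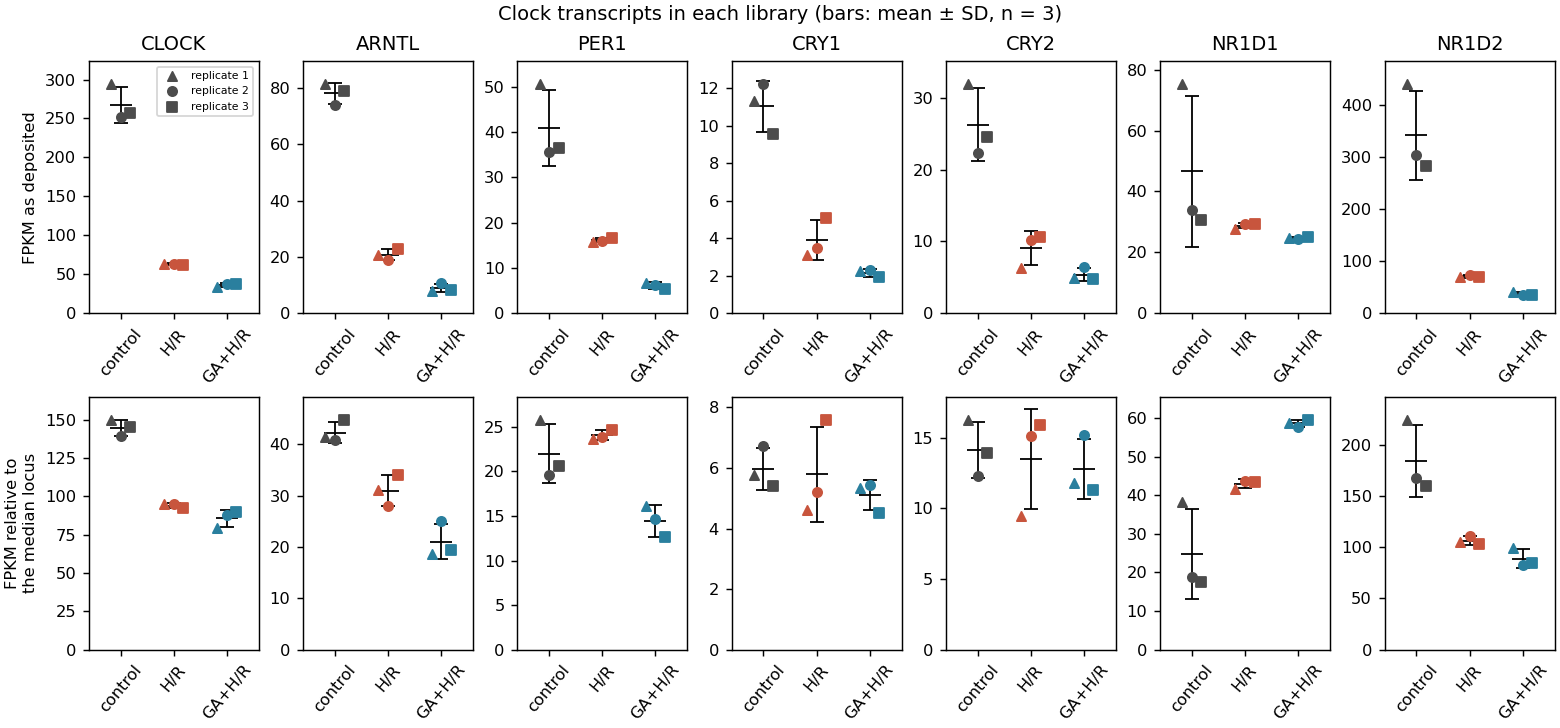
Level of the 7 tested clock genes in each library, as deposited FPKM (top row) and as FPKM relative to the median locus (bottom row), with each axis starting at 0. Triangles, circles and squares are replicates 1, 2 and 3, and bars are mean ± SD of 3 libraries. On the deposited scale CLOCK went from 268 to 63.1 and 36.2 FPKM, whereas NR1D1 in controls 2 and 3, at 33.9 and 30.8, lay close to the 24.5 to 29.3 of the other groups.

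The positive arm was lower in both injured groups. CLOCK, the activator that also acts as a histone acetyltransferase, was at 294, 252 and 257 FPKM in the controls, 63.5, 63.9 and 61.9 in H/R and 33.5, 37.2 and 38.0 in GA+H/R. The groups did not overlap relative to the median locus. Its log2 change was -0.62 ± 0.06 in the injury step (SE, adjusted p = 4.97e-05), -0.14 ± 0.06 in the gallic acid step (adjusted p = 0.136) and -0.75 ± 0.06 in the joint comparison (adjusted p = 7.65e-06). ARNTL, its partner, was at 81.3, 73.9 and 79.0 FPKM in the controls, 20.8, 18.8 and 22.8 in H/R and 7.89, 10.6 and 8.22 in GA+H/R. Each step separated all 3 libraries of one group from all 3 of the next. ARNTL was called in every comparison, with -0.44 ± 0.12 (adjusted p = 0.0123), -0.54 ± 0.12 (adjusted p = 0.00857) and -0.98 ± 0.12 (adjusted p = 8.21e-05). It was called lower in both H/R against control and GA+H/R against H/R, as were 7.90% of the loci tested.

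Long housekeeping transcripts moved the same way as the positive arm. Of 25 listed ones tested, 19, 14 and 24 fell in the 3 comparisons, with medians of -0.51, -0.30 and -0.92. Short housekeeping transcripts moved in the other direction, 22, 18 and 22 of 22 having risen with medians of 1.30, 0.58 and 1.91. With libraries scaled to the long transcripts, a scale chosen after seeing the data that shifts the median locus by 0.42, 0.39 and 0.76, CLOCK was at -0.12 (adjusted p = 0.181) in the injury step, 0.29 (adjusted p = 0.00679) in the gallic acid step and 0.18 (adjusted p = 0.0458) in the joint comparison. ARNTL was then at 0.05, -0.13 and -0.08, with adjusted p of 0.728, 0.374 and 0.563. The falls of both genes thus hold against the median locus and not against long transcripts, and transcript length was not among the values used here.

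**Figure D2:**
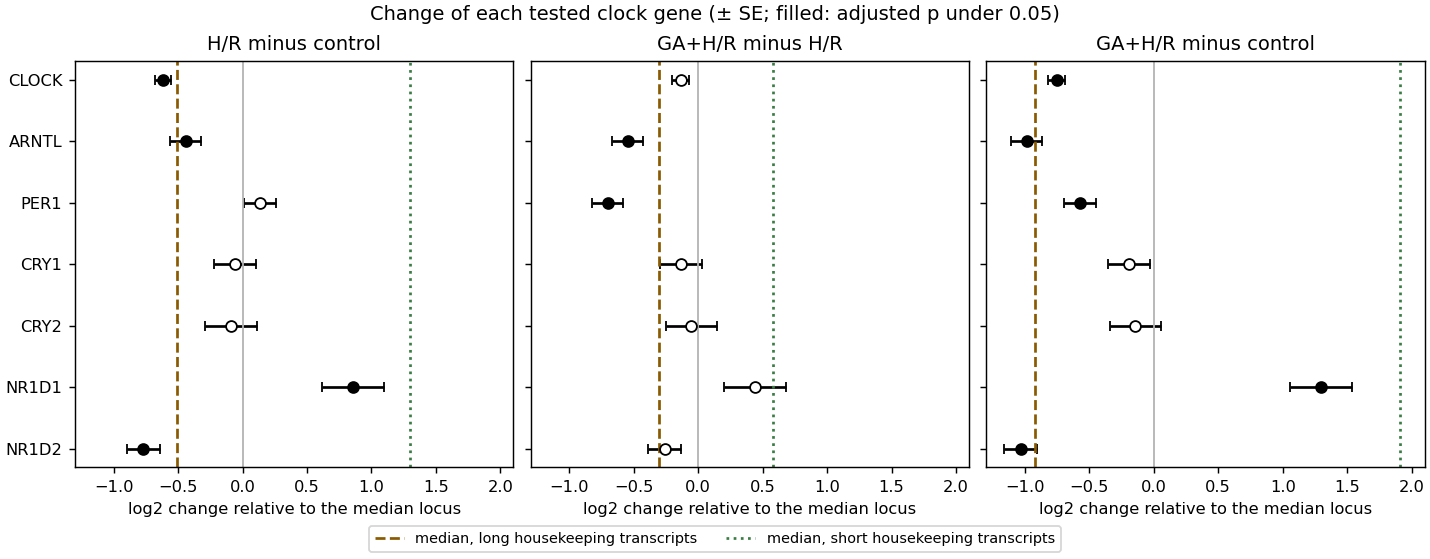
Log2 change of each tested clock gene relative to the median locus (points ± SE, filled where the adjusted p is under 0.05) in the 3 comparisons, with the median change of the listed long (dashed) and short (dotted) housekeeping transcripts. CLOCK, ARNTL and NR1D2 lie near the long-transcript median of -0.51 in the injury step, and NR1D1 lies at 0.86, between the zero line and the short-transcript median of 1.30.

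The PER genes, the repressors whose transcripts respond fastest to resetting signals, differed from the positive arm. PER1 was at 50.6, 35.6 and 36.4 FPKM in the controls, 15.8, 16.0 and 16.6 in H/R and 6.81, 6.22 and 5.33 in GA+H/R. Relative to the median locus the control libraries, between 19.7 and 25.8, overlapped the H/R libraries, between 23.6 and 24.7, while the GA+H/R libraries lay below both, between 12.6 and 16.2. PER1 was at 0.13 ± 0.12 in the injury step (adjusted p = 0.381), a direction that turned to -0.14 at equal totals and -1.27 on the deposited scale. It fell by 0.70 ± 0.12 in the gallic acid step (adjusted p = 0.00289), a change lower than that of all but 6.24% of loci, and was at -0.57 ± 0.12 in the joint comparison (adjusted p = 0.00274). Scaled to long transcripts, PER1 was called higher in the injury step at 0.62 (adjusted p = 0.00154), its change in the gallic acid step was -0.30 (adjusted p = 0.0534) and that in the joint comparison was 0.32 (adjusted p = 0.0318).

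PER2, a paralogue that stabilises the repressor complex, was measured near the bottom of the range. It was at 0.443, 0.536 and 0.398 FPKM in the controls, 0.223, 0.221 and 0.171 in H/R, and listed at 0 in GA+H/R 1 and 2 and at 0.0279 in GA+H/R 3. All GA+H/R libraries lay below all others. With no filter on low values it was called lower in the gallic acid step (adjusted p = 0.00228) and in the joint comparison (adjusted p = 0.00155), and in the injury step it had an adjusted p of 0.361. PER3 was at 0.261 and 0.211 FPKM in controls 1 and 2 and was listed at 0 in every other library. With so low a level and unknown depth, no change of PER3 can be read.

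The cryptochromes, the strongest repressors of the loop, did not pass the test relative to the median locus. CRY1 was at 11.3, 12.2 and 9.56 FPKM in the controls, 3.09, 3.49 and 5.09 in H/R and 2.25, 2.31 and 1.92 in GA+H/R. CRY2 was at 31.9, 22.3 and 24.6 in the controls, 6.31, 10.2 and 10.7 in H/R and 4.96, 6.45 and 4.78 in GA+H/R. Relative to the median locus their groups overlapped in all 3 comparisons. CRY1 was at -0.06, -0.13 and -0.19 (SE 0.16 each, adjusted p = 0.789, 0.561 and 0.327) and CRY2 at -0.09, -0.05 and -0.14 (SE 0.20 each, adjusted p = 0.725, 0.859 and 0.543). At equal totals CRY1 was called lower in the joint comparison, at -0.50 (adjusted p = 0.0233). Scaled to long transcripts, CRY1 and CRY2 were higher in GA+H/R than in control, by 0.61 (adjusted p = 0.0101) and 0.73 (adjusted p = 0.00869).

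The pair of REV-ERB genes parted. NR1D2, which encodes REV-ERB beta, was at 440.5, 304 and 283 FPKM in the controls, 70.1, 74.6 and 69.3 in H/R and 41.9, 35.1 and 35.7 in GA+H/R. It followed the positive arm, with -0.77 ± 0.13 in the injury step (adjusted p = 8.21e-04), -0.26 ± 0.13 in the gallic acid step (adjusted p = 0.145) and -1.03 ± 0.13 in the joint comparison (adjusted p = 8.56e-05). Scaled to long transcripts these were -0.27, 0.17 and -0.10, with adjusted p of 0.0887, 0.281 and 0.469.

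NR1D1, which encodes REV-ERB alpha, was at 75.3, 33.9 and 30.8 FPKM in the controls, 27.8, 29.3 and 29.2 in H/R and 24.7, 24.5 and 25.1 in GA+H/R. Relative to the median locus the controls were at 38.3, 18.7 and 17.4, the H/R libraries between 41.6 and 43.7, and the GA+H/R libraries between 57.7 and 59.4, with no overlap between groups. It rose by 0.86 ± 0.24 in the injury step (adjusted p = 0.0147) and by 1.30 ± 0.24 in the joint comparison (adjusted p = 0.00121), and was at 0.44 ± 0.24 in the gallic acid step (adjusted p = 0.194). On the deposited scale the direction turned, to -0.56 (adjusted p = 0.0787), -0.77 (adjusted p = 0.0224) and -0.21 (adjusted p = 0.517), and at equal totals the change in the injury step was 0.57 (adjusted p = 0.0980). Scaled to long transcripts, NR1D1 was called higher in all 3 comparisons, by 1.345 in the injury step (adjusted p = 9.75e-04), 0.87 in the gallic acid step (adjusted p = 0.0118) and 2.21 in the joint comparison (adjusted p = 2.08e-05). Short housekeeping transcripts rose more than NR1D1 in all 3 comparisons, with medians of 1.30, 0.58 and 1.91 relative to the median locus. The rise of NR1D1 thus holds against the median locus and long transcripts, and not against short ones. The spread of this gene lay mostly between control 1 and the other controls. The SE was estimated from all 3 groups, so control 1 also entered that of the gallic acid step. With only H/R and GA+H/R in the limma fit, NR1D1 was at 0.44 ± 0.06 (adjusted p = 0.00131) and NR1D2 at -0.26 ± 0.08 (adjusted p = 0.040). Without control 1 the 3 changes of NR1D1 were 1.21 (adjusted p = 1.66e-06), 1.65 (adjusted p = 1.40e-07) and, in the gallic acid step, 0.43 (adjusted p = 7.22e-04). That of NR1D2 in the gallic acid step was then -0.27 (adjusted p = 0.0195).

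Ratios between clock transcripts within a library do not depend on the scale between libraries. A trend that parts transcripts, such as that between long and short housekeeping transcripts, does not cancel in them. Its part in these ratios was not tested. The log2 ratio of NR1D1 to NR1D2 was -2.55, -3.17 and -3.20 in the controls, -1.33, -1.35 and -1.25 in H/R and -0.76, -0.52 and -0.51 in GA+H/R. The 3 groups were ordered without overlap, with a ratio 3.17-fold higher in H/R than in control and 1.64-fold higher again in GA+H/R than in H/R. An exact two-sided permutation test gave p = 0.1 for each step, the smallest that 3 against 3 libraries allow. All 3 libraries lay above all 3 of the lower group for 69.7% of loci in their ratio to NR1D2 in the injury step and for 42.0% in the gallic acid step, so the order itself is common. Without control 1 the log2 difference between H/R and control was 1.87, against 1.66 with it.

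The ratio of NR1D1 to ARNTL, its repression target, moved in the same order. Its log2 mean was -0.87 ± 0.66 for control, 0.47 ± 0.15 for H/R and 1.49 ± 0.24 for GA+H/R (SD, n = 3), without overlap. It was 2.53-fold higher in H/R than in control and 2.02-fold higher in GA+H/R than in H/R (exact permutation p = 0.1 for both, the smallest possible). The share of loci whose ratio to ARNTL was ordered in this way was 52.8% and 56.2%. The ratio of NR1D1 to PER1 was 1.68-fold and 2.28-fold higher in the same steps.

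The ratios of the other clock genes to ARNTL overlapped between groups in at least 1 of the 3 comparisons. NR1D2 over ARNTL overlapped in every comparison, with log2 means of 2.11 ± 0.30, 1.78 ± 0.19 and 2.08 ± 0.34 in control, H/R and GA+H/R (SD, n = 3; exact permutation p = 0.2, 0.3 and, for GA+H/R against control, 0.9). CLOCK over ARNTL overlapped between control and H/R (exact permutation p = 0.2) and was 1.35-fold higher in GA+H/R than in H/R (exact permutation p = 0.1). PER1 over ARNTL was 1.51-fold higher in H/R than in control, without overlap (exact permutation p = 0.1), and overlapped between GA+H/R and H/R (exact permutation p = 0.5). CRY1 over ARNTL overlapped in both successive steps (exact permutation p = 0.2 for each). CRY2 over ARNTL overlapped between control and H/R (exact permutation p = 0.3) and was 1.43-fold higher in GA+H/R than in H/R, without overlap (exact permutation p = 0.1). Between GA+H/R and control the ratios of CRY1 and CRY2 to ARNTL were 1.73-fold and 1.82-fold higher (exact permutation p = 0.1 for each). ARNTL itself fell in that comparison, with a change lower than that of all but 12.04% of loci. The share of all loci whose ratio to ARNTL was higher there is not given here, so these ratios are not read as particular to the clock.

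**Figure D3:**
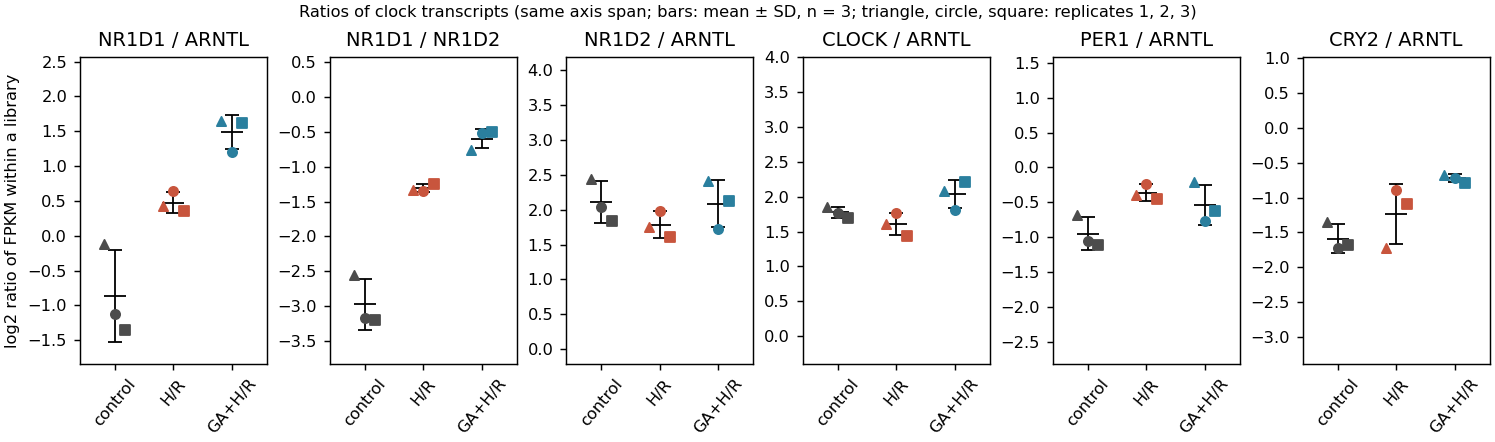
Log2 ratio of FPKM between clock genes in the same library, which the scale between libraries does not affect. A trend between long and short transcripts does not cancel in it. All panels span the same range of log2 units, and bars are mean ± SD of 3 libraries. NR1D1 over ARNTL and NR1D1 over NR1D2 step up from control to H/R to GA+H/R without overlap, while NR1D2 over ARNTL overlaps between all groups.

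Over the 9 libraries, the loci most like NR1D1 among 5826 candidates were DHRS7, a short-chain dehydrogenase, ARG2, the mitochondrial arginase, and HSPB8, a small heat shock protein (Pearson r of 0.996, 0.996 and 0.994 on log2 values relative to the median locus, as a description). Each was higher in control 1 than in controls 2 and 3, as NR1D1 was. In controls 1, 2 and 3, ARG2 was at 130.5, 51.5 and 40.9 FPKM and HSPB8 at 146.8, 22.2 and 23.6. Among protein-coding genes of the RefSeq rabbit assembly mOryCun1.1, NR1D1 lies between MSL1 and THRA, a thyroid hormone receptor gene. The spans of NR1D1 and THRA do not overlap there, and MSL1 was not analysed here. Whether reads were counted by strand is not given in the sources used here. THRA was also higher in control 1, at 22.6 FPKM against 14.2 and 12.8 in controls 2 and 3. Its means relative to the median locus were 8.86, 10.4 and 10.3 in control, H/R and GA+H/R, where those of NR1D1 were 24.8, 42.9 and 58.6, and the difference between the 2 genes was not tested.

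Control 1 differed from the other controls in part of the clock. Its NR1D1 value was 2.33 times the mean of controls 2 and 3, a difference above that of 99.08% of loci tested. NR1D2 was 1.501 times that mean (above 92.3% of loci), PER1 1.41 times (87.3%) and CRY2 1.36 times (83.6%). CLOCK, ARNTL and CRY1 were at 1.16, 1.06 and 1.04 times the mean, in the middle of all loci. The multiples are of deposited FPKM, while the shares of loci rank log2 differences relative to the median locus. On that scale ARNTL and CRY1 were at -0.04 and -0.06, below the other controls. Several listed clock pathway genes were high in the same library, a comparison made after control 1 had been seen to stand apart. GEM was at 1.75 times the mean of controls 2 and 3, PPARD at 1.75, KLF10 at 1.69 and NCOR1 at 1.62. Others were not, with NR3C1 at 1.26 times, CRTC2 at 1.05, NAMPT at 0.83 and WEE1 at 0.66. Targets of the glucocorticoid receptor were among the high ones. TSC22D3, a glucocorticoid-induced leucine zipper gene, was at 447 FPKM against 172 and 152, a ratio of 2.77 (above 99.6% of loci), KLF9, a zinc finger factor, at 1.89 times, ZBTB16 at 1.75 times and the cochaperone gene FKBP5 at 1.61 times, and so was CREB1, a cAMP response factor, at 1.64 times. Of the 12 macrophage markers, 10 were lower in control 1 than in both other controls, MRC1 at 1.55 FPKM against 42.6 and 46.5, while MSR1, at 5.13 against 1.24 and 0.869, and CD74 were higher, and the sum of 10.02 FPKM was the lowest of the controls. Of 10 fibroblast markers 8 were lower there than in both other controls, among them DCN at 390.4 FPKM against 1259 and 1251 and POSTN at 9.81 against 76.4 and 70.2, and 2 were higher (PDGFRA and FBLN1). Of 6 smooth muscle and pericyte markers 4 were lower, ACTA2 being at 525 FPKM against 968 and 973, and 2 were higher (NOTCH3 and MCAM). Parathyroid markers went the other way, with 6 of 9 higher (CHGA, CHGB, GATA3, PTH, RET and VDR) and 2 lower. Of those 6, all but VDR were under 1 FPKM in every control. Adipocyte (5), endothelial (7), epithelial (7) and proliferation markers (9) were mixed, with 3, 2, 1 and 5 lower and 2, 2, 2 and 3 higher. Their part in the values of control 1 was not tested.

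The rest of the clock pathway was counted in 9 lists of 64 symbols. The table held 58 of these and 49 were tested. In H/R against control 7 rose and 18 fell, in the gallic acid step 4 rose and 11 fell, and in the joint comparison 9 rose and 22 fell, with medians of -0.15, 0.0069 and -0.26. The shares of all loci called are those given above. On the deposited scale the medians were -1.56, -0.55 and -2.10, where CIART, PPP1CA and SKP1, said below to rise, were below zero, and falls smaller than the shift of the median locus would turn on the scale of long transcripts.

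Among repressors outside PER and CRY, 3 were tested. CIART, which represses CLOCK and ARNTL, rose by 0.88 in the injury step (adjusted p = 0.00279) and by 0.97 in the joint comparison (adjusted p = 0.00111), and was at -0.41 and -0.89 on the deposited scale. It was at 9.74, 9.66 and 10.5 FPKM in the controls, 5.64, 10.02 and 6.67 in H/R and 4.63, 4.70 and 5.38 in GA+H/R. BHLHE40, an E-box repressor, fell in the gallic acid step by 0.47 (adjusted p = 0.0345) and was at -0.61 against control (adjusted p = 0.00457), whereas its paralogue BHLHE41 was at 0.45 (adjusted p = 0.0711) and 0.09 (adjusted p = 0.650).

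RORA, the receptor that opposes the REV-ERBs at ARNTL, was the ROR gene tested. It fell by 0.58 in the injury step (adjusted p = 6.38e-04), was at -0.05 in the gallic acid step (adjusted p = 0.689) and at -0.63 in the joint comparison (adjusted p = 2.37e-04). The paralogues of the positive arm, NPAS2 (of CLOCK) and ARNTL2 (of ARNTL), were not called in any comparison. NPAS2 was at -0.27, 0.0069 and -0.27 (adjusted p = 0.166, 0.977 and 0.159) and ARNTL2 at -0.15, 0.30 and 0.15 (adjusted p = 0.321, 0.0841 and 0.281). The D-box factors NFIL3, a repressor, and TEF, an activator, were not called either, with NFIL3 at 0.09, -0.14 and -0.05 and TEF at -0.02, -0.23 and -0.25.

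Of 8 clock kinases and phosphatases, 3 rose and 3 fell in the injury step and 3 rose in the gallic acid step. PPP1CA, a catalytic subunit of protein phosphatase 1, which acts on PER proteins, rose by 1.23 and again by 0.62 (adjusted p = 7.72e-07 and 2.30e-04), while on the deposited scale it was at -0.21 and -0.05. PRKAA1, the AMP-activated kinase subunit that marks CRY1 for degradation in mice, fell by 0.62 in the injury step (adjusted p = 0.00736). CSNK2A1 was not called in any comparison (adjusted p = 0.268, 0.371 and 0.905), and neither was PPP1CC (adjusted p = 0.281, 0.201 and 0.706). Of 5 genes of the ubiquitin pathway, 1 rose and 2 fell in the injury step and 1 rose and 1 fell in the gallic acid step. FBXW11, a ligase subunit that recognises phosphorylated PER proteins, fell by 0.44 in the injury step (adjusted p = 0.00315). SKP1, a shared ligase subunit, rose by 0.19 and 0.31 in the 2 successive steps (adjusted p = 0.0382 and 0.00966), and DDB1 fell by 0.29 in the gallic acid step (adjusted p = 0.0422).

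Of 10 corepressors and chromatin partners, 6 fell in the injury step and 4 in the gallic acid step, with medians of -0.54 and -0.32 beside the -0.51 and -0.30 of long housekeeping transcripts. CREBBP, an acetyltransferase, fell by 0.53 (adjusted p = 0.00883) and SIRT1, a deacetylase of ARNTL, by 0.55 (adjusted p = 0.00603) in the injury step. NCOR1, the corepressor that REV-ERBs recruit, was at -0.20 (adjusted p = 0.243) and -0.34 (adjusted p = 0.0847) and NONO, a PER partner, at 0.02 (adjusted p = 0.760) and 0.02 (adjusted p = 0.864).

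Of 11 clock-controlled output genes, 1 rose and 3 fell in the injury step and 4 fell in the gallic acid step. TFRC, the transferrin receptor, fell by 1.28 and 0.48 (adjusted p = 5.40e-08 and 1.12e-04). KLF9 was at -0.33 (adjusted p = 0.185) and 0.21 (adjusted p = 0.441), and MTSS1 fell in the gallic acid step by 0.43 (adjusted p = 0.00221). Of 7 glucocorticoid and cAMP input genes, 1 rose and 3 fell in the injury step and 1 fell in the gallic acid step. ZBTB16 fell by 0.57 and by 0.88 (adjusted p = 0.0187 and 0.00445) and CREB1 by 0.61 in the injury step (adjusted p = 0.00835). TSC22D3 was at 0.57 (adjusted p = 0.138) and 0.41 (adjusted p = 0.330), and FKBP5 at 0.08 (adjusted p = 0.634) and 0.18 (adjusted p = 0.344). Of 4 other factors of the same protein family (bHLH-PAS), HIF1A fell by 0.72 in the injury step (adjusted p = 3.77e-05) and ARNT2 by 1.61 in the gallic acid step (adjusted p = 0.00408), while EPAS1 was at 0.15 and -0.03 and AHR at -0.02 and -0.08.

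**Figure D4:**
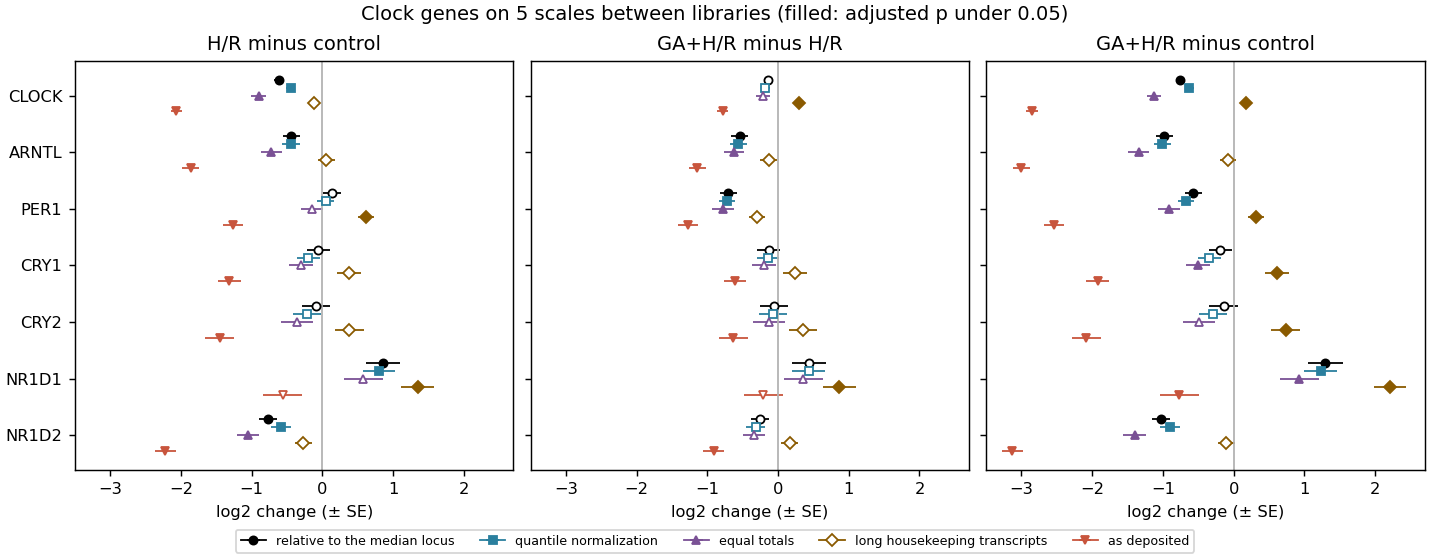
Log2 change of each tested clock gene (± SE, filled where the adjusted p is under 0.05) on 5 scales between libraries in the 3 comparisons. NR1D1 is the rightmost of the 7 genes on every scale shown in the joint comparison, from -0.77 as deposited to 2.21 relative to long housekeeping transcripts, and the order of the others around zero depends on the scale.

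Markers of cell types moved with the groups. Their counts stand beside the 29.2%, 18.7% and 33.7% of all loci that rose and the 28.4%, 15.2% and 35.5% that fell. The summed level of the 12 macrophage markers relative to the median locus lay between 5.10 and 45.1 in control, 33.5 and 38.3 in H/R and 379 and 388 in GA+H/R. MRC1 made up most of this sum in GA+H/R. Of the 12 markers, 8 passed the filter on low values and 7 of those rose in the gallic acid step, while CD74 was listed at 0 in all GA+H/R libraries. CD14 and FCER1G passed through the GA+H/R libraries alone. The filter thus favoured a rise of CD14 and FCER1G, which is not read as a result. The 10 fibroblast markers summed to between 65350 and 106100, 43720 and 43910, and 32720 and 33150 in the same order. COL1A2 and COL3A1 made up most of this sum in control. Of 8 fibroblast markers tested, 1 rose and 6 fell in the injury step, 1 rose and 4 fell in the gallic acid step and 2 rose and 6 fell in the joint comparison, VIM having risen in all 3 and THY1 in the joint comparison. Smooth muscle and pericyte markers (6 in the table) lay between 1187 and 2044, 3708 and 3730, and 3043 and 3127. TAGLN made up most of this sum in every group. Of the 4 tested, 1 rose and 0 fell in the injury step, and 0 rose and 2 fell in the gallic acid step. In the joint comparison 1 rose and 1 fell. Proliferation markers (9) lay between 45.97 and 57.2, 71.8 and 88.2, and 77.9 and 95.5. Adipocyte markers (5) lay between 209.5 and 325, 276.9 and 296, and 282.5 and 285. LEP made up most of this sum in every group. Of the 2 adipocyte markers tested, 0 rose and 1 fell in the injury step, and neither was called in the other comparisons. Epithelial markers (7) summed to at most 1.17 and endothelial markers (7) to at most 5.19 in any library, and the 9 parathyroid markers in the table to between 8.70 and 18.04, 11.2 and 12.6, and 9.85 and 10.8. The part of these cell types in the changes of the clock genes was not tested. In bulk RNA, fewer cells of a type and less of a transcript per cell cannot be told apart.

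The authors' deposited table gives a single test across the 3 groups, which names no pair of groups. It marked 8 of the 9 clock genes significant, PER3 being the exception, against 56.0% of all 19511 loci. Only 10956 of those loci passed the filter on low values used here, while 7 of the 9 clock genes did. The share among loci that passed is not given here, so 8 of 9 is not read as particular to the clock. The q-value of NR1D1 was 0.00731 in the authors' deposited table, and those of the other marked clock genes were between 5.66e-120 and 3.61e-18.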

How the data were processed

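The authors deposited 1 table of FPKM per locus with 9 library columns, per the file headers. Aligner, quantifier, strandedness and scaling between libraries are not given in the sources used here. Per the labels, libraries were made from total RNA with a kit for Illumina sequencing. The submitters' processing notes list GRCm38 and mm10, which are mouse builds, while the accessions in the table are of rabbit, and coordinates were left out for that reason. The deposited p-value and q-value columns hold the authors' own test and were only quoted. Depth is unknown, so no counting intervals are given. For values relative to the median locus, 8448 loci with at least 1 FPKM in all 9 libraries were compared with their mean, and a library's median ratio over them was its divisor. Loci reaching 1 in 3 or more libraries were tested on log2(value + 1) with limma 3.58.1 (R 4.3.3), with group means, trended and robust eBayes and two-sided p, so folds of low genes are understated. The fitting code was tested on simulated data. Ratios within a library used no pseudocount. Genes named were all members, up to 4 of each pathway list with the highest mean FPKM, and the 3 loci most like the member with the largest change among those with 1 name and a mean of at least 10 FPKM. Members and lists were chosen with earlier results of these data known. Some list genes that fall under this rule are not reported here. THRA was named after its values were seen. Figures were drawn with matplotlib 3.10.9.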

Additional observations from a re-analysis of the deposited data

How the results depend on the processing

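The results were recomputed under 19 alternatives, the scale set by long housekeeping transcripts having been added after seeing the data. Of 399 recomputed changes of single clock genes, 353 kept direction and side of the threshold. On the deposited scale, where the median locus itself moves, 0 clock genes were called higher and 6 lower in the injury step, 6 lower in the gallic acid step, and 0 higher and 7 lower in the joint comparison, and of all calls 4.64%, 2.56% and 4.35% were higher, where the main scale gave 50.7%, 55.2% and 48.7%. At equal totals 0 were called higher in the injury step (limma, NR1D1 having an adjusted p of 0.0980 there), and 32%, 42.1% and 32.8% of all calls were higher. On the scale of long transcripts 2, 2 and 5 clock genes were called higher and 0, 0 and 0 lower (limma; 0, 1 and 0 lower at an unadjusted p under 0.05), with 86.8%, 92.2% and 90.9% of all calls higher. With only the 2 groups compared in the fit, 1 (NR1D1) was called higher in the gallic acid step. Leaving out each replicate in turn gave between 0 and 1, NR1D1 being called without control 1. The other counts stayed within 1.5 times.

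Directions turned on the deposited scale for PER1 (-1.27) and NR1D1 (-0.56) in the injury step and for NR1D1 in the gallic acid step (-0.21) and the joint comparison (-0.77), and at equal totals for PER1 in the injury step (-0.14). On the scale of long transcripts they turned for CRY1 (0.37), CRY2 (0.38) and ARNTL (0.052) in the injury step, CRY1 (0.24), CRY2 (0.35), CLOCK (0.29) and NR1D2 (0.17) in the gallic acid step, and PER1 (0.32), CRY1 (0.61), CRY2 (0.73) and CLOCK (0.18) in the joint comparison. Left-out libraries turned only CRY1 and CRY2, neither of them called, whose values over the left-out libraries ranged from -0.24 to 0.067 (CRY1) and -0.22 to 0.13 (CRY2) in the injury step and from -0.26 to 0.049 (CRY1) and -0.27 to 0.077 (CRY2) in the gallic acid step. The cause was not tested. Same-numbered libraries did not deviate together (r between -0.02 and 0.03), so the numbers are not taken as pairs. With the replicate block 1 clock gene was called higher and 3 lower in the injury step, 0 and 2 in the gallic acid step and 1 and 4 in the joint comparison, and the calls over all loci went from 6315, 3712 and 7584 to 6142, 3385 and 7441.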
